A study of Mus musculus with 8 samples.

Results

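Cathepsins are the peptidases of the lysosome, and 9 of them were followed here in spleen neutrophils: Ctsa, Ctsb, Ctsc, Ctsd, Ctse, Ctsh, Ctsl, Ctss and Ctsz. They were chosen by gene symbol from the 55414 genes listed in the count tables, and all 9 were among the 16778 genes with enough reads to be tested. Neutrophils were purified from the spleen as CD45+ CD11b+ Ly6G+ cells, after enrichment on CD11b, and the study's methods also name an F4/80- gate, which removes macrophages. There were 4 WT and 4 Cxcr2-/- mice, and each gave a library for RNAseq. All mice were 10 weeks old and on the FVB background, and no treatment is named. The deletion was in the germline, so that every tissue of the Cxcr2-/- mice, and not the neutrophils alone, lacked this chemokine receptor. Libraries carried 34220182 to 46233555 counts on genes, and Cxcr2 itself stood at 1956 ± 221 CPM (SD, n = 4) in WT and 17.1 ± 3.46 CPM in Cxcr2-/- neutrophils. CPM is the number of counts on a gene per 1000000 counts of its library, after TMM scaling between libraries.

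Cathepsins are made as inactive precursors, tagged with mannose 6-phosphate, carried to lysosomes by the receptors for this tag and activated there in the acid lumen. Most are cysteine proteases (Ctsb, Ctsc, Ctsh, Ctsl, Ctss and Ctsz), whereas Ctsd and Ctse are aspartic proteases and Ctsa is a serine carboxypeptidase. In neutrophils, Ctsc has a particular role, because it removes the dipeptide that keeps the serine proteases of the primary granules inactive, and those granules are filled early, while the cells are still precursors in the bone marrow.

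The start-site sequences of the members show which of them carry letters read by factors known for lysosomal or myeloid genes. RefSeq windows of 300 bases on GRCm38.p6, with 250 bases before and 50 from the start site on, were found for 6 members (Ctsa, Ctsc, Ctsd, Ctsl, Ctss and Ctsz), with 2 start sites for Ctsa. Ctsb, Ctse and Ctsh are named only. These are reference sequences and not reads of the FVB mice. Both strands were searched for 3 motifs. The first, CACGTG, is the palindromic E-box core read by the MiT-TFE factors of lysosomal genes and also by Myc and Usf proteins. It is present in 7.17% of all 32544 windows. The second, TTGCNNAA, is the core of C/EBP sites (10.8% of windows). The third, GAGGAAG, holds the GGAA core shared by PU.1 and the other ETS factors (13.4% of windows). The windows that hold a match are printed 5′ to 3′ on the strand of the gene, with the matches in capitals, because they include the member that rose (Ctsc) and the member that fell (Ctsa). The windows lie at chr2:164833523-164833822 (+) for the second start site of Ctsa, chr7:142387778-142388077 (-) for Ctsd, chr13:64370471-64370770 (-) for Ctsl, chr7:88277835-88278134 (+) for Ctsc and chr3:95526536-95526835 (+) for Ctss.
Ctsa: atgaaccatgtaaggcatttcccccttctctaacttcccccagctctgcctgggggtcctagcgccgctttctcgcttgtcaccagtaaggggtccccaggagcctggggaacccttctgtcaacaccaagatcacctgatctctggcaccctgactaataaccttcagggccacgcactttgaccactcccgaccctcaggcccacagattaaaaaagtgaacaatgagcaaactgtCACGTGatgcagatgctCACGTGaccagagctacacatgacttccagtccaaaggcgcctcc
Ctsd: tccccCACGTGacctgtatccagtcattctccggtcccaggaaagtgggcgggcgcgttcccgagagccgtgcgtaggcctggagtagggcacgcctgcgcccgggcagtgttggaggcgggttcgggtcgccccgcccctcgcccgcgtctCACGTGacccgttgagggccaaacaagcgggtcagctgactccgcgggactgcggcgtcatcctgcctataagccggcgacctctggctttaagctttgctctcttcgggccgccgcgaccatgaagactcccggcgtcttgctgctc
Ctsl: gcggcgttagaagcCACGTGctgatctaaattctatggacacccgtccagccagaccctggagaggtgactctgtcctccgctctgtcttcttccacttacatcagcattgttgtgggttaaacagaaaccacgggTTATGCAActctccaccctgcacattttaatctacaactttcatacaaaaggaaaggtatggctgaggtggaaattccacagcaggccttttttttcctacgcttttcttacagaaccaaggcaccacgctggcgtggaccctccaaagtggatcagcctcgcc
Ctsc: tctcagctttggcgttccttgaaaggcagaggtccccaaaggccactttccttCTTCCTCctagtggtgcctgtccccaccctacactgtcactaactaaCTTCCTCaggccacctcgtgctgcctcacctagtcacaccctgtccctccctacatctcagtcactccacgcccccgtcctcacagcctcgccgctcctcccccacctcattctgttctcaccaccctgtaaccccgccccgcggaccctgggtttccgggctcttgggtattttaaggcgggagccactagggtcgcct
Ctss: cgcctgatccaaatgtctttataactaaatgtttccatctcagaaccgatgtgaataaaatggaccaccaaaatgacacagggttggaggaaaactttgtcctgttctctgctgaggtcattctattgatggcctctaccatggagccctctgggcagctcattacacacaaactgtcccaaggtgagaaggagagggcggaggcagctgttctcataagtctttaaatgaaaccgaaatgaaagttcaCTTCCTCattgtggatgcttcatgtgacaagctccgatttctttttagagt
CACGTG occurred in the windows of Ctsa, Ctsd and Ctsl. GAGGAAG, as its reverse complement CTTCCTC, occurred in those of Ctsc and Ctss. TTGCNNAA, as TTATGCAA, occurred in that of Ctsl alone. The matches of Ctsa lay close to the start site, with their first letter 12 bases before and 5 bases after it, and those of Ctsd lay 245 and 98 bases before it. None of the motifs was found in the window of Ctsz or at the first start site of Ctsa. The printed windows of Ctsa and Ctsl lie wholly inside the bounds of these genes in GENCODE M21, the annotation used for positions. Those bounds are chr2:164832873-164841032 and chr13:64359337-64370890, so that these RefSeq start sites are downstream of the outermost start in M21. A match of letters is a description of the sequence and not a binding site.

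Among the 9 cathepsins, 1 was higher in Cxcr2-/- neutrophils (Ctsc), 1 was lower (Ctsa) and 7 did not pass the test, with edgeR's quasi-likelihood test and a Benjamini-Hochberg adjusted p under 0.05 over all genes tested. Of all genes tested, 44.7% passed in either direction, 23.7% as higher and 21% as lower, and with DESeq2 34.9% passed in either direction. Ctsc and Ctsa also passed the 1.5-fold limit of the study's methods, which 31.3% of all genes did. Ctsa fell short of that limit without the Cxcr2-/- library 2 (log2 fold change -0.55) and without the Cxcr2-/- libraries 1 and 2 (-0.48). The groups did not overlap for 3 members, Ctsc, Ctsa and Ctsd, against 41.6% of all genes. The median log2 fold change of the 9 members was 0.15, and that of all genes tested was 0.01.

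**Figure D1:**
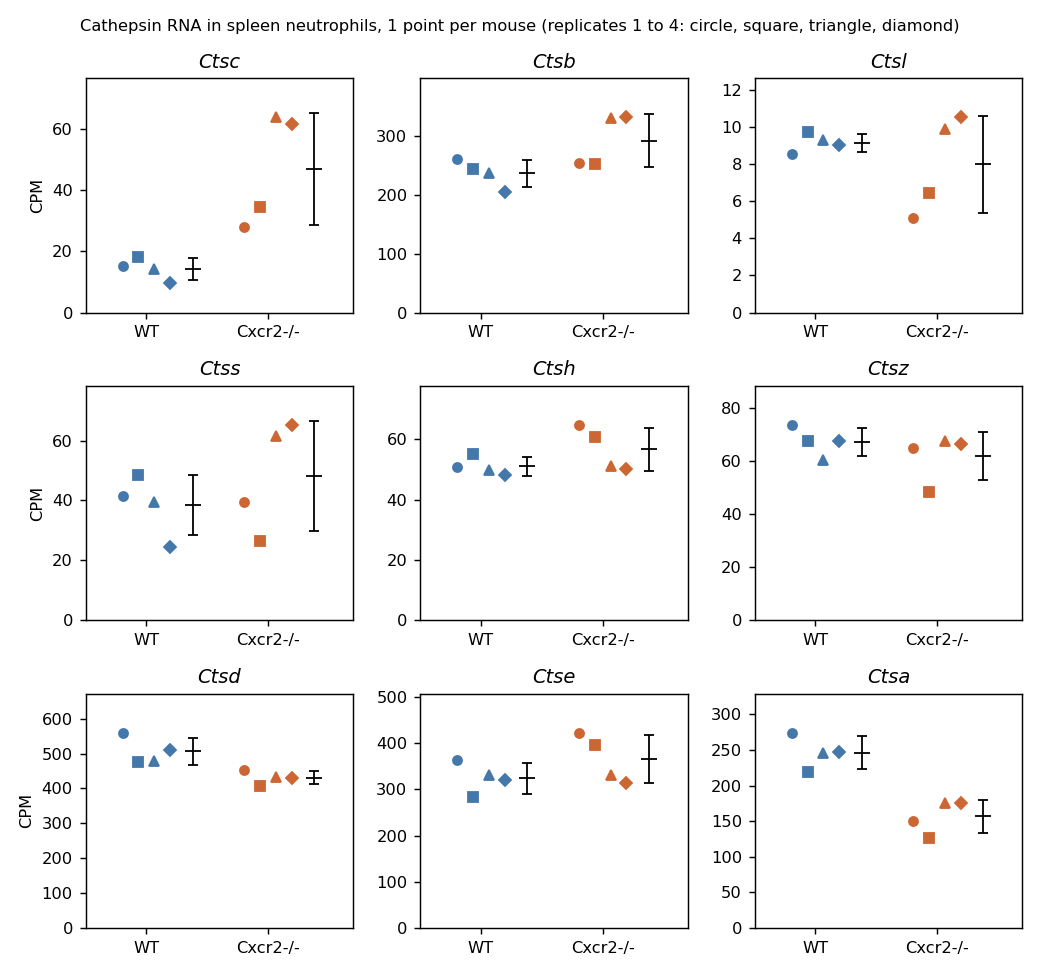
CPM (vertical axis, from 0, a separate scale for each gene) of the 9 cathepsins in the 4 WT and 4 Cxcr2-/- libraries, with 1 point per mouse and the mean and SD as bars. Ctsc was at 27.8 CPM or more in every Cxcr2-/- library and at 18.1 CPM or less in every WT library, and Ctsa was lower in every Cxcr2-/- library. The Cxcr2-/- libraries 3 and 4 stood above libraries 1 and 2 for Ctsc, Ctsl and Ctss, and by less for Ctsa, Ctsb and Ctsz.

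Among the cysteine proteases, Ctsc, the dipeptidyl peptidase of the group, was called (chr7:88278085-88310888, + strand, GRCm38). It stood at 15.3, 18.1, 14.3 and 9.55 CPM in the WT libraries 1 to 4, and at 27.8, 34.4, 63.7 and 61.4 CPM in the Cxcr2-/- libraries 1 to 4. All Cxcr2-/- libraries were above all WT libraries, and 3 and 4 were higher than 1 and 2. The mean rose from 14.3 ± 3.57 to 46.8 ± 18.4 CPM (SD, n = 4 per group), a log2 fold change of 1.71 (SE 0.26, 3.26-fold, adjusted p = 2.07e-04). In a bulk sample, more cells with Ctsc RNA and more Ctsc RNA per cell cannot be told apart. Leaving out any 1 library gave log2 fold changes from 1.52 to 1.89.

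Of the 6 serine proteases listed as activated by Ctsc, 4 were higher and none lower (66.7% called, beside 44.7% of all genes tested). The median log2 fold change was 3.06. Gzma and Gzmb, granzymes of cytotoxic lymphocytes, were not called. Elane, the neutrophil elastase, stood at 1.30, 1.19, 2.11 and 0.289 CPM in WT and at 12.0, 14.5, 55.5 and 93.2 CPM in Cxcr2-/- libraries (log2 fold change 5.15, SE 0.69, adjusted p = 7.25e-05). Prtn3, the proteinase 3, stood at 1.11, 1.21, 3.53 and 0.868 CPM in WT and at 20.4, 17.5, 63.5 and 92.1 CPM in Cxcr2-/- libraries (log2 fold change 4.86, SE 0.60, adjusted p = 3.69e-05). Both proteases were without overlap between the groups, and as for Ctsc the Cxcr2-/- libraries 3 and 4 were the highest. Ctsg, the cathepsin G of primary granules and a serine protease unrelated to the lysosomal members, ranged from 0.0442 to 0.588 CPM in WT and from 1.87 to 20.03 CPM in Cxcr2-/- libraries (log2 fold change 5.24, SE 0.86, adjusted p = 3.28e-04), and its WT values rest on few reads. Prss57, the neutrophil serine protease 4, rose from 4.81 ± 0.585 to 11.5 ± 1.49 CPM (log2 fold change 1.26, adjusted p = 2.81e-05).

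**Figure D2:**
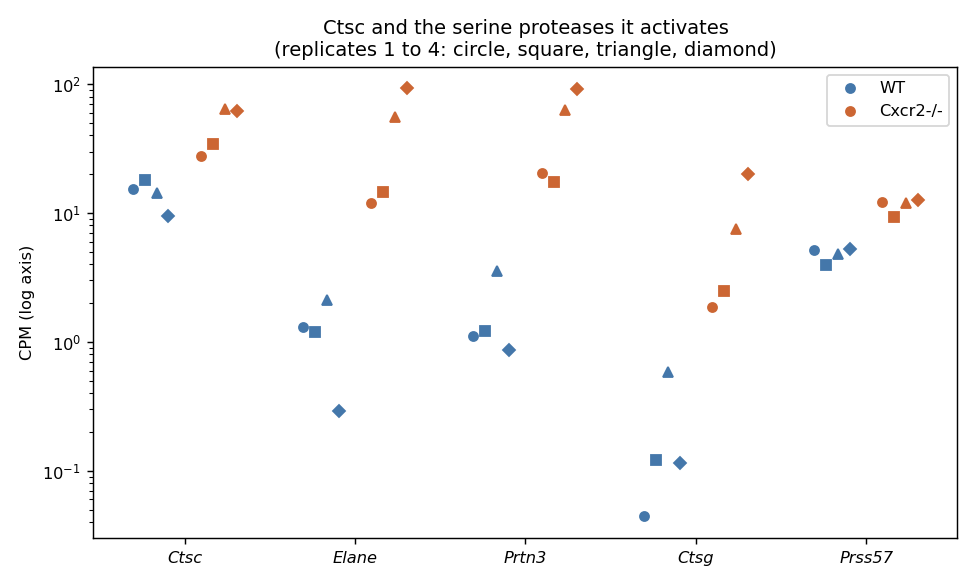
CPM on a log axis of Ctsc and of the 4 serine proteases of its list that were called, with 1 point per mouse. For each of the 5 genes every Cxcr2-/- library lay above every WT library, and Elane, Prtn3 and Ctsg in the Cxcr2-/- libraries 3 and 4 were above libraries 1 and 2.

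Genes of neutrophil precursors were higher in the same group as Ctsc. Of the 12 markers of that list, among which are Elane, Prtn3 and Ctsg themselves, 12 were higher, beside 23.7% of all genes tested. The summed level of the 12 markers ran from 17737 to 21564 CPM in WT and from 40791 to 58985 CPM in Cxcr2-/- libraries. Within the Cxcr2-/- group the sum did not follow Ctsc. It was 58985, 49502, 48563 and 40791 CPM in libraries 1 to 4, highest where Ctsc was lowest, and most of it was Ltf, Ngp and Camp. Mpo, a marker of earlier precursors, stood at 19.1, 20.2, 81.2 and 145.8 CPM in these libraries, with 3 and 4 the highest as for Ctsc. None of these markers was at 0 in every library. The part of precursor cells in the rise of Ctsc was not tested.

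Ctsb, which acts as an endopeptidase and as a dipeptidase from the C-terminus, stood at 259.8, 244, 237 and 205 CPM in WT and at 253, 251.4, 330.4 and 331 CPM in Cxcr2-/- libraries. The Cxcr2-/- libraries 1 and 2 lay within the WT range, and 3 and 4 lay above it. The log2 fold change was 0.30 (SE 0.12, adjusted p = 0.0602), and did not pass. It passed without the Cxcr2-/- library 1 (0.37, adjusted p = 0.0284) or without library 2 (0.37, adjusted p = 0.0336). It did not pass without library 3 (0.23, adjusted p = 0.196) or without library 4 (0.22, adjusted p = 0.201).

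Ctss, the endopeptidase that trims the invariant chain of MHC class II in antigen-presenting cells, stood at 41.4, 48.6, 39.6 and 24.6 CPM in WT and at 39.4, 26.5, 61.4 and 65.1 CPM in Cxcr2-/- libraries. The spread within each group was wide, and the groups overlapped. The log2 fold change was 0.32 (SE 0.26, adjusted p = 0.344). Macrophage and monocyte markers followed Ctss in part: their mean log2 (CPM + 1) was 3.15, 3.84, 3.18 and 2.44 in the WT libraries and 2.60, 2.43, 3.24 and 3.41 in the Cxcr2-/- libraries, so that in both groups the library with the most Ctss and that with the least were also the highest and the lowest for the markers. With this mean as a covariate, Ctss passed (log2 fold change 0.50, adjusted p = 0.00518), as did Ctsb (0.36, adjusted p = 0.00867), and Ctsc rose by 1.88 (adjusted p = 3.81e-07). Of the 15 markers of that list, 2 were higher (Ly6c2 and Ccr2) and 2 were lower (Adgre1 and Csf1r), beside 23.7% and 21% of all genes tested. The summed level of the 15 markers ran from 761 to 896 CPM in WT and from 897 to 1058 CPM in Cxcr2-/- libraries. Without Ly6c2, which went from 239 ± 35.1 to 627 ± 38.4 CPM, the sum was 525 to 626 CPM in WT and 263 to 419 CPM in Cxcr2-/- libraries. Most of that was Csf1r, which went from 442 ± 41.1 to 232 ± 42.1 CPM. None of the 15 markers was at 0 in every library. C1qa, which defines tissue macrophages, was at 0.0578 to 5.79 CPM in WT and 0.277 to 1.32 CPM in Cxcr2-/- libraries.

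Ctsl, an endopeptidase of broad specificity, was the least abundant member, with 201 to 484 counts per library. It stood at 8.51, 9.73, 9.27 and 9.0 CPM in WT and at 5.08, 6.45, 9.86 and 10.5 CPM in Cxcr2-/- libraries. The WT libraries were close together, whereas 2 of the Cxcr2-/- libraries lay below the WT range and 2 above it, so that the mean change was small (log2 fold change -0.19, SE 0.21, adjusted p = 0.471).

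The exopeptidases Ctsh and Ctsz did not pass. Ctsh, an aminopeptidase, stood at 50.7, 55.3, 49.7 and 48.3 CPM in WT and at 64.7, 60.9, 51.2 and 50.2 CPM in Cxcr2-/- libraries (log2 fold change 0.15, SE 0.10, adjusted p = 0.239). Here the order was the opposite of Ctsl, with the Cxcr2-/- libraries 1 and 2 above the WT range and 3 and 4 within it. Ctsz, a carboxypeptidase, stood at 73.5, 67.4, 60.2 and 67.5 CPM in WT and at 64.7, 48.4, 67.6 and 66.4 CPM in Cxcr2-/- libraries (log2 fold change -0.12, SE 0.11, adjusted p = 0.416). A single Cxcr2-/- library, number 2, was below all others for Ctsz.

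Of the aspartic proteases, Ctsd (chr7:142375911-142388038, - strand) had the highest level of all members per exon length, with 14682 to 25317 counts per library. It stood at 559.7, 476, 478 and 511 CPM in WT and at 452, 406, 434 and 429 CPM in Cxcr2-/- libraries. Every Cxcr2-/- library was below every WT library, and the Cxcr2-/- libraries were close together. The difference was small and just missed the threshold (log2 fold change -0.23, SE 0.09, adjusted p = 0.0591). It passed with DESeq2 (log2 fold change -0.25, adjusted p = 0.0403), with upper-quartile scaling (-0.35, adjusted p = 0.00719), with total-count scaling (-0.32, adjusted p = 0.00585) and without the WT library 2 (-0.29, adjusted p = 0.0470). Ctse, which is mostly held in endosomes, stood at 364, 283, 332 and 320.3 CPM in WT and at 423, 396, 332 and 314 CPM in Cxcr2-/- libraries. The groups overlapped, and the Cxcr2-/- libraries 1 and 2 were above the WT range (log2 fold change 0.17, SE 0.12, adjusted p = 0.259). The ratio of Ctse to Ctsd in CPM per kb of exon was 0.440 to 0.515 in WT and 0.543 to 0.722 in Cxcr2-/- libraries, without overlap.

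Ctsa, the carboxypeptidase that also holds beta-galactosidase and neuraminidase 1 together in the lysosome (chr2:164832873-164841032, + strand), was the member that fell. It stood at 274, 219, 245 and 247 CPM in WT and at 151, 126, 175 and 175 CPM in Cxcr2-/- libraries, without overlap between the groups. The mean went from 246 ± 22.6 to 157 ± 23.4 CPM, a log2 fold change of -0.65 (SE 0.12, 1.57-fold lower, adjusted p = 7.38e-04). It stayed between -0.73 and -0.55, and passed, whichever library was left out. Because Ctsc and Ctsa moved in opposite directions, the ratio of Ctsc to Ctsa counts was 0.0386 to 0.0829 in WT and 0.184 to 0.363 in Cxcr2-/- libraries.

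Some members share exon bases with other genes, and the strand setting of the counting is not given in the sources used here. Ctsa overlaps Pltp by 495 bases and Neurl2 by 324 bases, and Ctsb overlaps Fdft1 by 774 bases, all on the opposite strand. Ctsz shares 10 bases with Nelfcd, also opposite. The partners of Ctsa and Ctsb had far fewer counts, 97 to 3043 over the 8 libraries together. On the same strand, Ctsd shares 808 bases with Gm49369 and Ctsl 395 bases with the pseudogene Gm49230, both at 0 counts in every library. Ctsl also overlaps the antisense gene Gm47123 by 1742 bases, likewise at 0 counts. Reads in those shared bases are uncertain, and a partner at 0 counts does not show that none were set aside. The lengths used for CPM per kb hold all exon bases, for Ctsd 2351 with the 808 shared ones. Levels and shares per kb therefore carry the same uncertainty.

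The 4 Cxcr2-/- libraries fell into pairs for most of these genes, without a label that tells them apart. The pairs were picked after these values were seen. The adjusted p values of the fits without a pair are therefore descriptions and support no call. Over genes with enough counts in the 2 libraries compared, libraries 1 and 2 differed by a chi-square of 36.02 per gene and libraries 3 and 4 by 27.8. Pairs across ranged from 47.0 to 99.0, and pairs of WT libraries from 23.9 to 61.8, so that these ranges overlap. The mean of libraries 3 and 4 was 2.01 times that of 1 and 2 for Ctsc, 1.92 times for Ctss and 1.77 times for Ctsl. It was 1.31 times for Ctsb, 1.26 times for Ctsa and 1.18 times for Ctsz, against 1.005 times for Ctsd, 0.808 times for Ctsh and 0.790 times for Ctse. Without libraries 3 and 4, 2 members were higher (Ctsc at 1.10, adjusted p = 3.62e-04, and Ctsh at 0.29, adjusted p = 0.0447) and 2 were lower (Ctsa at -0.85, adjusted p = 2.18e-04, and Ctsl at -0.68, adjusted p = 0.00712). Without libraries 1 and 2, 3 members were higher (Ctsc at 2.13, adjusted p = 2.30e-06, Ctsb at 0.49, adjusted p = 0.00348, and Ctss at 0.72, adjusted p = 0.00948) and Ctsa was lower (-0.48, adjusted p = 0.00401). Of the 17690 genes tested without libraries 3 and 4, 3548 were higher and 3617 lower. Of the 17850 tested without libraries 1 and 2, 3641 were higher and 3109 lower. Ctsc and Ctsa were the members with an adjusted p under 0.05 in the same direction in both fits and with all libraries. Ctss, Ctsl, Ctsh and Ctsz had opposite signs in the fits with one pair and with the other. Of these, Ctsh (-0.0019) and Ctsz (0.0030) were near 0 without libraries 1 and 2.

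**Figure D3:**
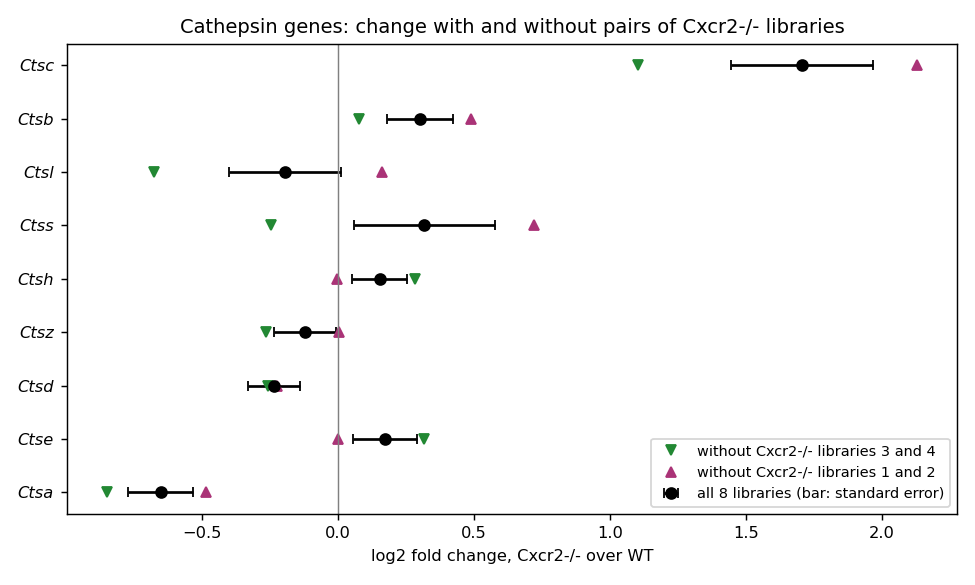
Log2 fold change (Cxcr2-/- over WT, horizontal axis) of the 9 cathepsins with all 8 libraries (black, bar: SE) and without either pair of Cxcr2-/- libraries (triangles). Ctsc lay between 1.10 and 2.13 and Ctsa between -0.85 and -0.48, away from 0 in each fit, whereas Ctsl went from -0.68 to 0.16 and Ctss from -0.24 to 0.72.

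Levels of different genes were compared per length, as CPM per kb of annotated exon. In WT neutrophils, Ctsd led with 215 ± 16.7, before Ctse with 102 ± 10.6 CPM per kb (SD, n = 4). Ctsa (52.2 ± 4.79), Ctsz (46.6 ± 3.77), Ctsb (39.1 ± 3.78) and Ctss (28.4 ± 7.44) came next, and each overlapped its neighbour in this order. Ctsh (11.3 ± 0.671), Ctsc (2.46 ± 0.615) and Ctsl (1.41 ± 0.0784) followed with no overlap. In Cxcr2-/- neutrophils Ctsa moved from the third to the sixth place (33.3 ± 4.97), behind Ctsb (48.2 ± 7.48), Ctsz (42.9 ± 6.24) and Ctss (35.4 ± 13.5), although these 4 again overlapped their neighbours. By the longest annotated transcript, Ctsa was in the third place in WT and in the fourth in Cxcr2-/- neutrophils. Ctsc kept the eighth place at 8.06 ± 3.17 CPM per kb, between Ctsh and Ctsl.

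The summed CPM of the 9 genes overlapped between the groups, with 1420 to 1647 CPM in WT and 1356 to 1526 CPM in Cxcr2-/- libraries. Ctsd was 43.1% of the sum of CPM per kb in WT (41.9% to 44.96%) and 38.2% in Cxcr2-/- neutrophils (37.1% to 39.3%). Ctsa was 10.5% and 6.91%, and Ctsc was 0.495% and 1.67%, each without overlap between the groups. Ctse had overlapping shares, at 20.5% and 24.2%.

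**Figure D4:**
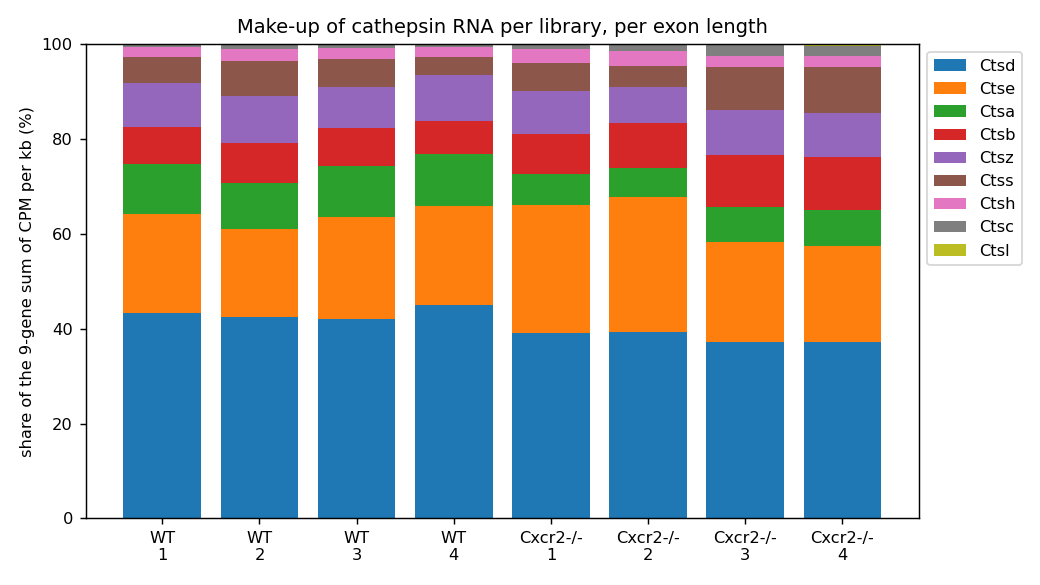
Share of each cathepsin in the 9-gene sum of CPM per kb (%, vertical axis) in each library, stacked from Ctsd at the bottom. Ctsd held 41.9% to 44.96% in WT and 37.1% to 39.3% in Cxcr2-/- libraries, and the Ctsc band was wider in every Cxcr2-/- library.

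Other cathepsin genes were few in these cells. Of 15 listed, 5 could be tested, of which Ctsg and Ctso were higher and none lower (40% called, beside 44.7% of all genes tested). Ctso, a lysosomal cysteine protease, went from 4.98 ± 0.532 to 7.08 ± 0.641 CPM (log2 fold change 0.51, adjusted p = 0.0134, and 0.0925 without the Cxcr2-/- libraries 1 and 2). Napsa, an aspartic protease close to Ctsd, was at 47.5 to 59.1 CPM in WT and 40.8 to 61.5 CPM in Cxcr2-/- libraries and was not called, nor were Ctsk and Ctsw. The 9 cathepsins of the placental cluster on the list had no count in any library.

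Of 10 tested genes for inhibitors that bind cysteine cathepsins, 7 were higher and none lower, with a median log2 fold change of 1.81. The share called was 70%, beside 44.7% of all genes tested. The number higher was 6 with upper-quartile or total-count scaling and 8 with DESeq2. Stfa3 went from 7.98 ± 2.46 to 76.4 ± 37.0 CPM (log2 fold change 3.26, SE 0.37, adjusted p = 1.83e-05) and Stfa2 from 12.6 ± 4.02 to 119 ± 50.1 CPM (3.24, SE 0.31, adjusted p = 5.63e-06). Most of the list is the stefin A cluster (Stfa1, Stfa2, Stfa3, Stfa2l1, BC100530, BC117090 and Gm5483). These stefins are near-identical copies, so that reads may be shared or lost between them. The count and the median therefore rest largely on this cluster and not on 7 separate inhibitors. Among the single-copy inhibitors, Cst3 (cystatin C, log2 fold change -0.18, adjusted p = 0.286) and Cstb (cystatin B, 0.16, adjusted p = 0.408) were not called. Cst6 and Cst7, also on the list and outside the cluster, are not described here, so these values do not stand for all single-copy inhibitors.

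Of 32 other lysosomal hydrolases, which are glycosidases, sulfatases and lipid hydrolases or their helper proteins, 17 were lower and 7 higher. The share called was 75%, beside 44.7% of all genes tested, and the median log2 fold change was -0.32. Gla, the alpha-galactosidase, went from 83.3 ± 16.7 to 25.5 ± 12.2 CPM (log2 fold change -1.71, adjusted p = 3.95e-04) and Aga, the aspartylglucosaminidase, from 18.0 ± 3.43 to 6.97 ± 0.597 CPM (-1.37, adjusted p = 1.27e-05). In the other direction, Glb1, the beta-galactosidase that Ctsa protects, went from 3.10 ± 0.430 to 7.05 ± 0.732 CPM (1.18, adjusted p = 8.82e-05). Among 8 genes listed with the other peptidases, Lgmn (legumain, which processes cathepsin precursors) was lower (-0.67, adjusted p = 0.00452) and Plbd1 (a phospholipase B-like protein and not a peptidase) was higher (0.36, adjusted p = 0.0218). The share called of these 8 genes was 25%, below the 44.7% of all genes tested. The call of Plbd1 was lost without the WT library 2, 3 or 4, without the Cxcr2-/- library 1 or 2 (adjusted p from 0.0504 to 0.0753) and with upper-quartile scaling (0.0934).

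Genes that bring the cathepsins to the lysosome were called in both directions, at 50% of those tested, near the 44.7% of all genes tested. Of 16 sorting genes, 4 were higher and 4 lower, or 2 and 6 with upper-quartile or total-count scaling. The number higher was also 2 without the WT library 2, the WT library 3 or the Cxcr2-/- library 1. Igf2r, the larger mannose 6-phosphate receptor, went from 119 ± 14.5 to 187 ± 39.5 CPM (log2 fold change 0.65, adjusted p = 0.00277), and Vps29, a retromer subunit, rose by 0.42 (adjusted p = 0.00273). Sorl1, an abundant sorting receptor of the sortilin family, went from 4869 ± 490.5 to 2927 ± 239.7 CPM (-0.73, adjusted p = 3.49e-04). Gnptab, a subunit of the enzyme that starts the mannose 6-phosphate tag, went from 17.0 ± 1.16 to 11.6 ± 1.22 CPM (-0.56, adjusted p = 0.00158).

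Of 18 subunits of the proton pump that acidifies lysosomes, 7 were higher and none lower. The share called was 38.9%, beside 44.7% of all genes tested in either direction and 23.7% as higher. With upper-quartile scaling 5 were higher and 1 lower, and with total-count scaling 6 were higher and 2 lower. The largest changes were those of Atp6v0a1 (182 ± 10.2 to 304 ± 17.4 CPM, log2 fold change 0.74, adjusted p = 3.04e-05) and Atp6v1a (137 ± 8.71 to 224 ± 6.16 CPM, 0.70, adjusted p = 3.20e-05). Of 15 lysosomal membrane proteins, 6 were higher and 2 lower (53.3% called, beside 44.7% of all genes tested). This balance turned to 1 higher and 3 lower with upper-quartile scaling. It was 2 and 2 with total-count scaling and without any 1 of the WT libraries 2, 3 and 4 or the Cxcr2-/- libraries 3 and 4. They included Ctns, the cystine exporter (0.66, adjusted p = 8.54e-05), Clcn7, a chloride and proton exchanger (0.34, adjusted p = 0.0134, and 0.0602 without the WT library 3), Laptm5 (-0.41, adjusted p = 0.00681) and Mcoln1, a calcium channel (-0.39, adjusted p = 0.0115). All 4 MiT-TFE transcription factors, which drive lysosomal genes, were called, 2 in each direction. The share called was 100%, beside 44.7% of all genes tested, but of only 4 genes. Tfec went from 0.670 ± 0.122 to 3.15 ± 1.59 CPM (2.22, adjusted p = 2.34e-04), and Tfe3 was at 0.38 (adjusted p = 0.0272). Tfe3 was not called without the WT library 2 or 3, without the Cxcr2-/- library 1 or 2 (adjusted p from 0.0601 to 0.0973) or with upper-quartile scaling (0.102). Mitf went from 30.2 ± 2.96 to 12.3 ± 1.49 CPM (-1.29, adjusted p = 3.17e-06) and Tfeb from 126 ± 12.5 to 91.5 ± 9.01 CPM (-0.46, adjusted p = 0.00270).

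**Figure D5:**
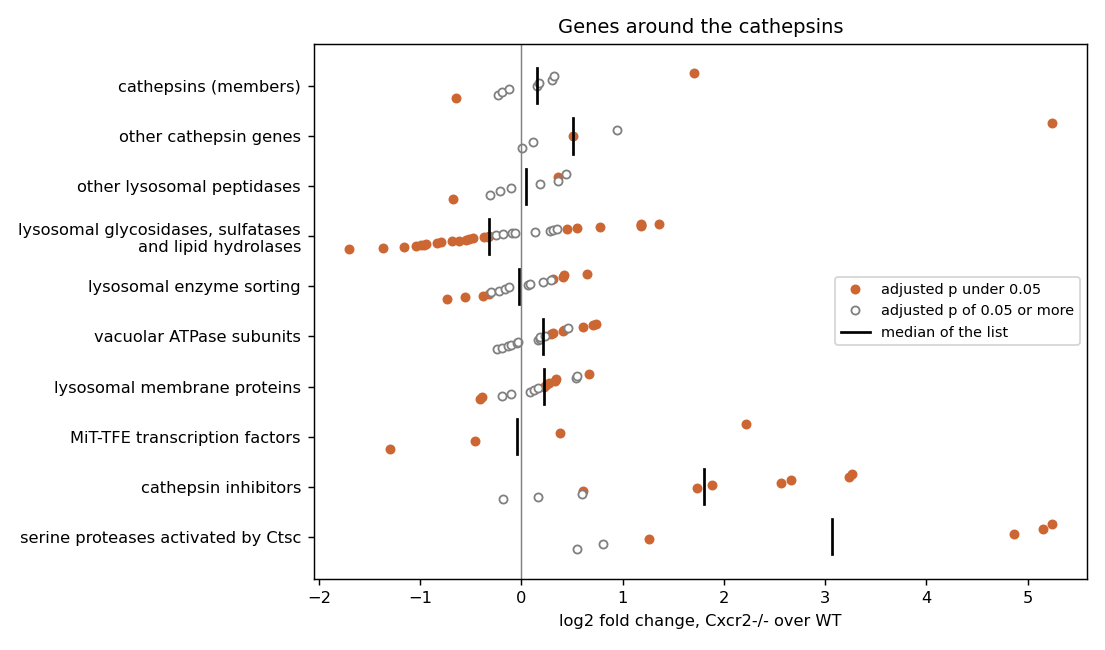
Log2 fold change (Cxcr2-/- over WT, horizontal axis) of each tested gene of the cathepsins and of 9 lists around them, filled where the adjusted p was under 0.05, with the median of each list as a bar. The median was 0.15 for the cathepsins, -0.32 for the other hydrolases, 1.81 for the inhibitors and 3.06 for the serine proteases activated by Ctsc.

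The sorted cells had the RNA of neutrophils, with the 10 markers of that list above 1 CPM in every library and a summed level of 37195 to 51612 CPM in WT and 70316 to 84042 CPM in Cxcr2-/- libraries. Of these markers, 6 were higher and 3 lower. Beside this and the marker counts that follow, 23.7% of all genes tested were higher and 21% lower. S100a8 and S100a9 made up most of the sum and were higher, whereas Csf3r, the G-CSF receptor, went from 6960.3 ± 461.7 to 3334 ± 146.9 CPM and Ptprc, which encodes CD45, from 4354 ± 218 to 2553 ± 227 CPM, and Cxcr2 was the third that was lower. Markers of dendritic cells, a cell type rich in Ctss, summed to 556 to 921 CPM in WT and 148 to 229.6 CPM in Cxcr2-/- libraries, with 3 of 8 tested markers lower and none higher. Most of that sum was Itgax, which neutrophils also express. B cell markers summed to 71.4 to 153 CPM and 30.8 to 71.6 CPM, with 5 of 7 lower. T and NK cell markers summed to 98.1 to 118 CPM and 91.8 to 139.9 CPM, with 1 of 5 lower. Most of the T and NK sum was Cd3d, at 80.1 to 110 CPM in WT and 87.3 to 135.5 CPM in Cxcr2-/- libraries. The next highest, Cd4, was at 1.27 to 14.1 CPM in WT and 0.553 to 1.85 CPM in Cxcr2-/- libraries. Cd3e was at 0.0442 to 0.563 and 0.0277 to 0.194 CPM, and Trac at 0 to 0.482 and 0 to 0.203 CPM. No level of T or NK cells is therefore read from this sum. Eosinophil, basophil and mast cell markers (3 higher and 2 lower of 5), erythroid markers (none called of 4) and platelet markers (1 lower of 2) summed to under 70 CPM in every library. The part of these cells in the values of the cathepsins was not tested, beyond the covariate for macrophage and monocyte markers.

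The genes whose log2 CPM ran most like that of each member, by Pearson's r over the 8 libraries among 4358 genes with a mean of at least 30 CPM, differed from member to member. These are descriptions, since the libraries share the difference between the groups and 8 points give many high values. Ctsa was closest to Il1b (r = 0.992) and Fosb (r = 0.983). Ctsc was closest to Cct4, a chaperonin subunit (r = 0.984), and Rpsa, a ribosomal protein (r = 0.974). The translation genes Eef1a1 (r = 0.996) and Rpl12 (r = 0.992) were closest to Ctsb, and the ribosomal protein genes Rpl3 (r = 0.913) and Rpl14 (r = 0.893) to Ctss. Ctsd was closest to Rassf5 (r = 0.987) and Psap, the precursor of the saposins, which assist lysosomal lipid breakdown (r = 0.983). For the rest, Ctse was closest to Osbpl2 and Sh3bp5l, Ctsh to Lhfpl2 and Parp4, Ctsl to Sub1 and Rnf4, and Ctsz to Trim28 and Slc3a2, with r from 0.881 to 0.975.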

How the data were processed

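RNA of spleen neutrophils from 4 WT and 4 Cxcr2-/- mice was depleted of ribosomal RNA and made into directional libraries, which were sequenced from both ends. The authors trimmed reads to a minimum length of 120, aligned them to mm10 with STAR, counted them on genes with HTSeq and deposited whole-number counts per gene, without normalization. Tool versions and the strand setting are not given in the sources used here. Pairs outside any gene were 31.4% to 41.5% of all in WT and 26.7% to 31.9% in Cxcr2-/- libraries, and stayed out of library sizes and tests.

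Identifiers were matched to GENCODE M21 (GRCm38), which has 52081 of the 55414. Of those, 52044 carry a later version in the files, so the counting used a later release, and positions and exon lengths are those of M21. Counts were tested in R 4.3.3 with edgeR 4.0.16 (quasi-likelihood test, TMM, filterByExpr, Benjamini-Hochberg over 16778 genes). The study's tool, DESeq2 1.42.0, and other scalings, filters, covariates and left-out libraries were alternatives. The fits that leave out a pair of Cxcr2-/- libraries were added after the data were seen. Steps were tested on simulated data. No replicates of a group agreed within counting noise (23.9 to 99.0 for the chi-square over the number of genes).

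The cathepsins and all lists were chosen with earlier results of these data known. Named were all members, the 2 largest called changes in each direction of each list with a mean of at least 1 CPM, and the 2 genes most alike to each member. Prtn3, Prss57, Cst3, Cstb, Napsa, Ctsk, Ctsw, Gzma, Gzmb and the named marker genes were added after their values were seen. A gene that falls under the rule is not reported here. Protein sequences were not used here.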

Additional observations from a re-analysis of the deposited data

Results flagged for a closer look

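A single value stood apart within its group by Dixon's test, among 20 gene and group pairs checked (the 9 cathepsins and Cxcr2 in each group), where chance flags about 1 in 20. Ctsz in the Cxcr2-/- library 2 was at 48.4 CPM, and the other Cxcr2-/- libraries were at 64.7, 67.6 and 66.4 CPM. Without that library, the log2 fold change of Ctsz was -0.01 and was again not called.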

How the results depend on the processing

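Ctsc was higher and Ctsa lower in every alternative fit with an adjusted p under 0.05, though Ctsa did not keep a 1.5-fold change in all of them. The number of cathepsins called lower went from 1 to 2 with DESeq2, upper-quartile scaling, total-count scaling and a filter that asks for 10 counts in all libraries (Ctsd each time), and to 2 without the Cxcr2-/- libraries 3 and 4 (Ctsl). The number called higher went from 1 to 3 with the macrophage and monocyte covariate and without the Cxcr2-/- libraries 1 and 2 (Ctsb and Ctss), and to 2 without libraries 3 and 4 (Ctsh). With each library left out in turn, 1 to 2 were higher (Ctsb without the Cxcr2-/- library 1 or 2) and 1 to 2 lower (Ctsd without the WT library 2). Without the Cxcr2-/- libraries 3 and 4, Ctss turned to -0.24. Without libraries 1 and 2, Ctsl turned to 0.16, Ctsh to -0.0019 and Ctsz to 0.0030. The cause was not tested. The pairs were picked after the values were seen, so that calls in the fits without a pair are descriptions. Upper-quartile scaling moved the median of all genes to -0.11 and the share of calls that were higher from 53.0% to 41.2%, with 44.3% under total counts. The replicate numbers belong to different mice, and samples with the same number did not deviate together (r of 0.11, -0.18, 0.15 and -0.25 for numbers 1 to 4, and not every library was closest to its own number). With the replicate block, 3719 genes were higher and 3349 lower, with 1 cathepsin in each direction. By the longest annotated transcript, 7 of 9 members kept their WT place, Ctsb and Ctsz being exchanged, and in Cxcr2-/- neutrophils Ctsa was in the fourth place and not the sixth. Every member had at least 201 counts in each library, and Ctsl, with the fewest, has the widest counting error.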

Other observations

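The Cxcr2-/- libraries 3 and 4 also differed from 1 and 2 in some genes listed as markers of other cells. Ctsc, Ctss and Ctsl were high in 3 and 4, and Ctsb, Ctsa and Ctsz were higher there by less. Ccr2, the chemokine receptor of inflammatory monocytes, stood at 7.48, 8.85, 34.4 and 45.7 CPM in the Cxcr2-/- libraries 1 to 4 and at 4.34 to 9.06 CPM in WT. The mean log2 (CPM + 1) of the macrophage and monocyte list was 2.60, 2.43, 3.24 and 3.41 in these libraries. Ly6c2 of the same list did not follow, at 663, 634, 639 and 573 CPM. The summed erythroid markers stood at 1.92, 1.77, 11.4 and 12.0 CPM in the Cxcr2-/- libraries and at 2.11 to 4.6 CPM in WT. The T and NK cell sum, at 139.9, 117.6, 98.8 and 91.8 CPM in the Cxcr2-/- libraries, went the other way. It was mostly Cd3d, without a like level of Cd3e or Trac, and is not read as a level of these cells. Ctsd, with 452, 406, 434 and 429 CPM, did not follow this split. These values were chosen after they were seen, and no relation between them was tested.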
